A study of Oryza sativa with 6 samples.

Results

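Aquaporins are membrane channels of the major intrinsic protein family. This account covers the rice aquaporin genes that carry a PIP, TIP, NIP or SIP name in the RefSeq gene table. The genes were taken by name without use of a measured value, but the family was chosen with earlier results of these data known. The table names 29 such genes, and 25 of them had at least 1 probe set assigned to that gene alone, out of 17905 genes so measured. The measured genes are 3 of 3 PIP1, 7 of 8 PIP2, 8 of 9 TIP, 5 of 7 NIP and 2 of 2 SIP genes. NIP1-2, NIP3-3, PIP2-3 and TIP5;1 were not analysed here. Each gene is represented by its probe set with the highest mean over the 6 arrays.

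The arrays compare young inflorescences of the rice sro mutant with those of wild type, Japonica variety 9522. Each genotype has 3 biological replicates of 4-5 mm inflorescences from plants in the paddy field, with no special treatment. The comparison asks which transcripts differ between the genotypes at the length at which, per the labels, SRO is most expressed and most spikelets have begun stamens and carpels. The labels used here state neither the allele, the number of plants in a sample nor their age, and the SRO transcript itself was not checked.

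Water crosses plant membranes largely through these channels, and growing cells take up water to enlarge. The subfamilies differ in where they sit and what they carry. Plasma membrane intrinsic proteins (PIPs) line the cell surface, and in maize PIP1 proteins depend on PIP2 partners to reach it. Tonoplast intrinsic proteins (TIPs) lie in the vacuole membrane. Nodulin 26-like proteins (NIPs) include channels for silicic and boric acid, and small basic intrinsic proteins (SIPs) were located in the endoplasmic reticulum in Arabidopsis.

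In sro, NIP4-1 rose at least 3.93-fold, PIP2-4 fell 3.14-fold, PIP2-1 fell 1.52-fold, and both SIP genes, SIP2-1 and SIP1-1, fell 1.39-fold and 1.25-fold. Thus 5 of the 25 genes passed the test, 1 higher and 4 lower, and 20 did not. The test was limma on log2 intensities with Benjamini-Hochberg adjustment over all 57258 probe sets, and a gene is called changed at an adjusted p under 0.05. By the same rule 26.6% of the 17905 genes were called, 7.28% higher and 19.4% lower, so the family's share of 20.0% lay near that of all genes. The median log2 change (sro minus wild type) was -0.0084 over the aquaporins and -0.055 over all genes, and the median absolute change was 0.14 and 0.15. No PIP1 or TIP gene was called in limma, where an unadjusted p under 0.05 was reached by 0 of 3 PIP1 and 2 of 8 TIP genes.

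**Figure D1:**
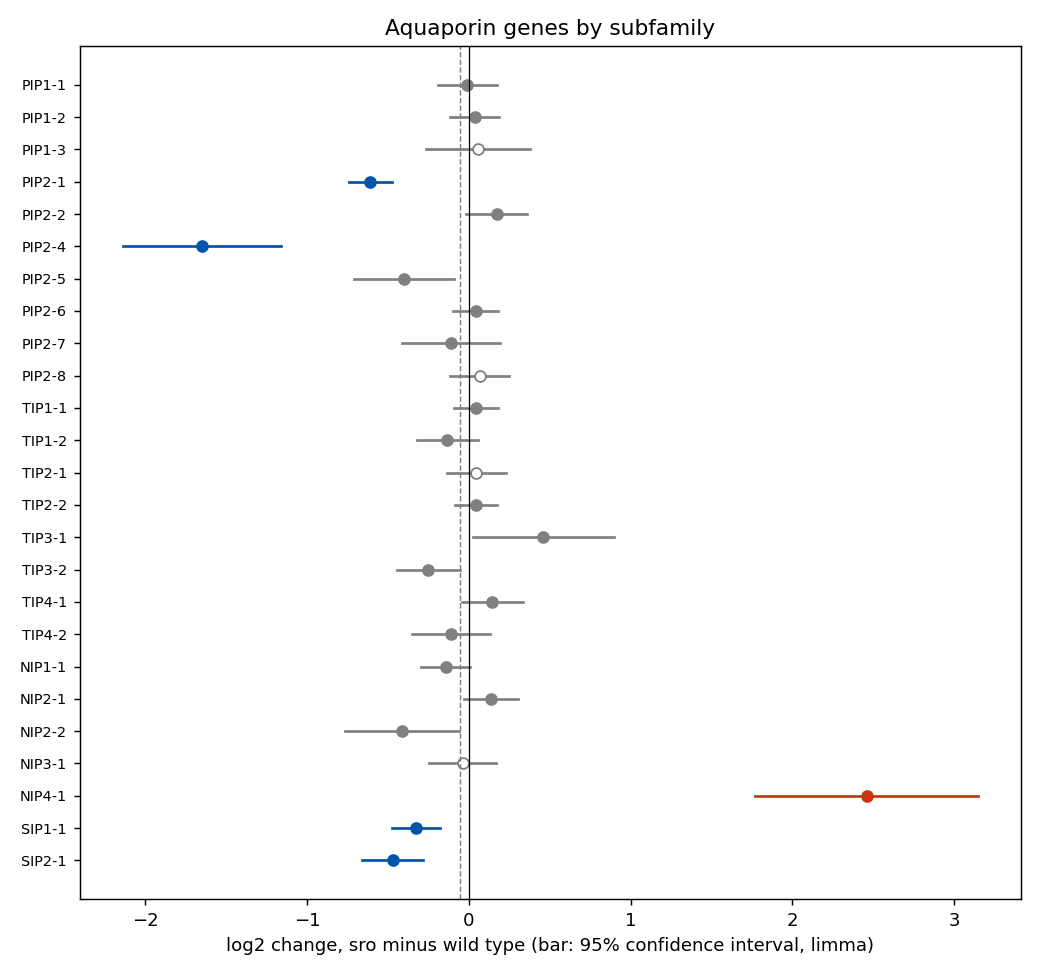
Log2 change, sro minus wild type, of the 25 measured aquaporin genes, grouped by subfamily, with 95% confidence intervals from limma (3 arrays per genotype). Red marks the called rise, blue the 4 called falls and grey the rest, open circles mark genes at or below the level of the fungal control probe sets in both genotypes, and the dashed line is the median of all genes (-0.055). NIP4-1 (2.46) and PIP2-4 (-1.65) stand far outside the others, which lie between -0.61 and 0.46.

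The 6 arrays had log2 medians of 5.26 to 5.31. The mean of the 10 probe sets for the fungus Magnaporthe was 4.65 in wild type and 4.69 in sro. It serves as a control level, on the assumption that clean rice RNA holds no target for these sets. The assumption was not tested, and some genes averaged well below this level (NIP3-1 at 2.99 in wild type). All 13 floral organ and meristem identity genes used as tissue markers lay above the control level in both genotypes. Of these, 5 (OsMADS2, OsMADS4, OsMADS16, OsMADS34 and OsMADS58) were called higher, by 0.22 to 0.49 on the log2 scale. None was called lower, where 7.28% of all genes were called higher and 19.4% lower. At an unadjusted limma p under 0.05, 7 were higher and 2 lower, DL (log2 change -0.33) and OsMADS15 (-0.15). The median log2 change over the list was 0.17. The log2 of the summed intensities of the 13 genes ran from 14.89 to 14.99 in wild type and from 15.06 to 15.10 in sro. Of 8 measured tapetum and anther markers 4 were called higher, against 7.28% of all genes. Among the 4 were OsC6 (at least 19.4-fold) and RTS (at least 10.1-fold). Both averaged below the control level in wild type, OsC6 only just (4.61). Of those not called, MSP1 (log2 change -0.18, limma adjusted p = 0.0944) and TDR (-0.31, adjusted p = 0.25) were lower in sro. TDR averaged just below the control level in sro (4.68), and its 2 groups overlapped. OsC4 was higher (1.60, adjusted p = 0.12), and EAT1 lay at or below the control level. The log2 of the summed intensities of all 8 markers ran from 11.54 to 11.63 in wild type and from 11.92 to 11.94 in sro. MSP1, by far the brightest, averaged 11.39 in wild type and 11.21 in sro. It thus made up most of the sum in both genotypes. Of 7 green tissue markers 2 fell, CAB2R (-1.27) and PORA (-1.05), and 5 were not called, where 19.4% of all genes fell. The summed level of the 7 ran from 11.19 to 11.28 in wild type and from 11.11 to 11.20 in sro, with RBCS1 at or below the control level. The 5 prime end of the dap labelling spike read 7.59, 7.55 and 7.77 in wild type and 10.3, 7.95 and 9.48 in sro replicates 1, 2 and 3 (exact permutation test, two-sided, p = 0.1, which is the lower limit for 3 arrays a side). The 3 prime minus 5 prime difference of the control probe sets also separated the genotypes, on the log2 scale. For actin it was 5.13, 5.24 and 5.17 in wild type and 4.46, 4.94 and 4.90 in sro, and for GAPDH 1.64, 1.66 and 1.65 against 1.29, 1.63 and 1.37 (exact permutation test, two-sided, p = 0.1 for each). The part of these shifts in the aquaporin results was not tested, and in whole inflorescences fewer cells of a type and less RNA per cell cannot be told apart.

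NIP4-1 (LOC4326119, chromosome 1) was the only aquaporin called higher. In Arabidopsis, genes of the NIP4 group are expressed in pollen. Its log2 intensity was 3.40, 4.79 and 4.38 in wild type replicates 1, 2 and 3, and 6.71, 6.58 and 6.64 in sro. The groups did not overlap, the sro arrays lay close together, and the wild type arrays were spread around the control level, with only replicate 2 above it. The fitted log2 change was 2.46 (SE 0.30, limma adjusted p = 0.00171). Because wild type averaged below the control level, its fold is a lower limit, taken against the higher of the gene's own value and the control level on each wild type array.

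The other 4 measured NIP genes did not pass the test. NIP2-2 (Lsi6, LOC4340558, chromosome 6), which moves silicic acid out of the xylem and towards the panicle, read 7.85, 7.52 and 8.21 in wild type and 7.40, 7.51 and 7.44 in sro. Every sro array lay below every wild type array, but wild type replicate 2 exceeded the highest sro array by less than the spread within either group. Its log2 change was -0.41 (95% confidence interval -0.76 to -0.062, limma adjusted p = 0.116), and without wild type replicate 2 it was -0.58 (adjusted p = 0.0178). Without wild type replicate 3 it was -0.24 (adjusted p = 0.23). NIP2-1 (Lsi1), the silicic acid importer of rice roots, averaged 6.10 in wild type and 6.23 in sro, a log2 difference of 0.14 (-0.029 to 0.30, adjusted p = 0.257). NIP1-1 averaged 10.79 in wild type and 10.65 in sro (change -0.14, adjusted p = 0.203). NIP3-1 (DTE1), a boric acid channel, lay below the control level on all 6 arrays (means of 2.99 and 2.95), so no difference could be measured for it. Lsi2, the silicon exporter that works with Lsi1 in roots, also lay below the control level in both genotypes (4.25 and 4.45, adjusted p = 0.087).

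Among the PIP2 genes, 2 of 7 measured fell and 5 were not called. PIP2-4 (LOC4343119, chromosome 7), a plasma membrane water channel, read 10.16, 9.17 and 9.74 in wild type and 7.97, 8.13 and 8.02 in sro. The lowest wild type array stood above all 3 sro arrays, although the wild type arrays themselves differed by 0.99. Its log2 change was -1.65 (SE 0.21, limma adjusted p = 0.00214), the 48th lowest of the 17905 genes. In an unmoderated linear model it missed the threshold at the same change (adjusted p = 0.0521). PIP2-1 (LOC4343122), which contributes to root water uptake in rice, read 12.52, 12.50 and 12.43 in wild type and 11.85, 11.86 and 11.91 in sro. Both groups were tight, and the fall of 0.61 on the log2 scale (SE 0.058, limma adjusted p = 0.00064) exceeded the spread within either of them (SD 0.043 in wild type and 0.031 in sro, n = 3). PIP2-5 (LOC4343121) read 5.73, 5.21 and 5.74 in wild type and 5.19, 5.14 and 5.15 in sro. These groups did not overlap, but wild type replicate 2 was only slightly above the sro arrays. The log2 change was -0.40 (95% confidence interval -0.71 to -0.090, limma adjusted p = 0.0891), and it was -0.57 (adjusted p = 0.00222) without wild type replicate 2. Without wild type replicate 1 it was -0.32 (adjusted p = 0.213), and without wild type replicate 3 it was -0.31 (adjusted p = 0.249).

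**Figure D2:**
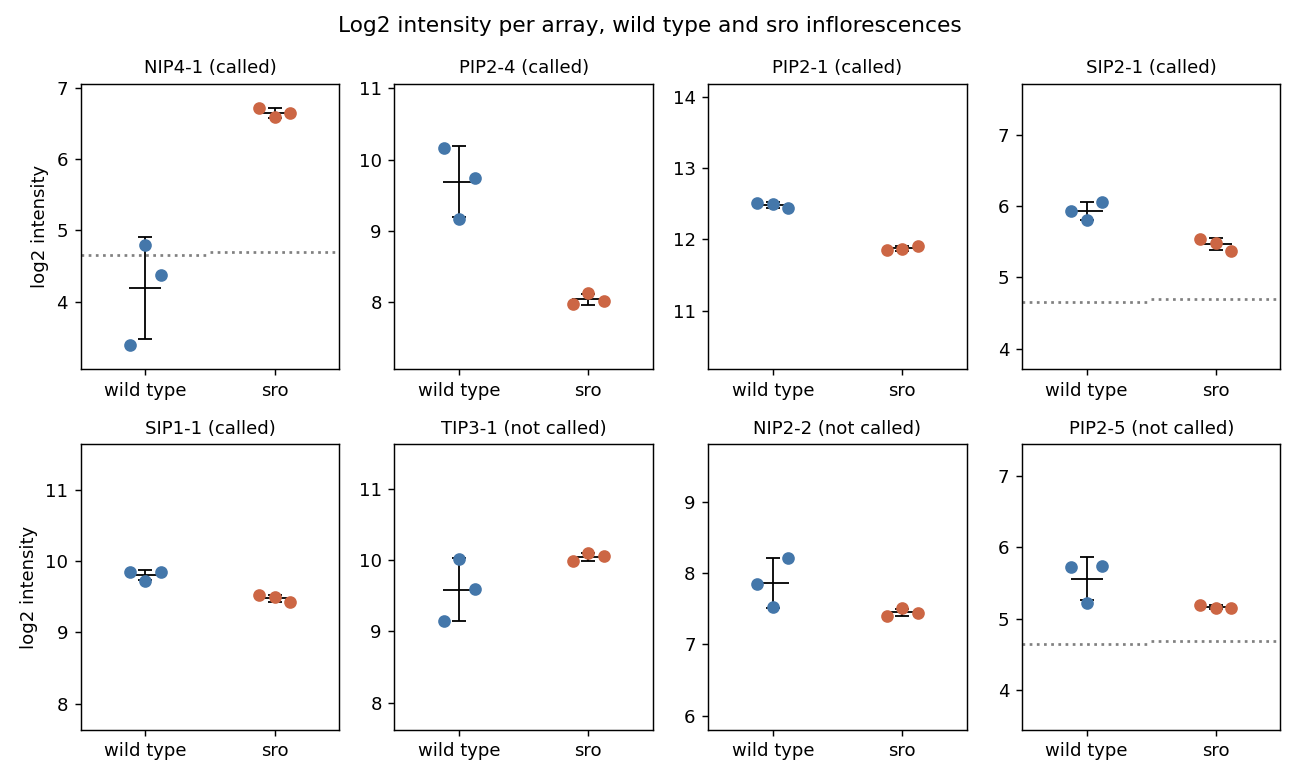
Log2 intensity of 8 aquaporin genes in each array (points, replicates 1 to 3 from left to right), with the mean and SD of each genotype in black (n = 3). Every panel spans the same range on its axis, and dotted lines show the fungal control level (4.65 in wild type, 4.69 in sro). The sro arrays lie closer together than the wild type arrays in all 8 panels.

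PIP2-4, PIP2-5 and PIP2-1 lie next to each other on chromosome 7 in the RefSeq assembly, with 1 pseudogene and no other protein-coding gene between the first and the last. No other pair of the 29 genes is adjacent. A further probe set, assigned to PIP2-1 and PIP2-5 together, fell by 0.58 on the log2 scale (SE 0.063), and the second bright PIP2-1 probe set fell by 0.57 (SE 0.064). The third PIP2-1 probe set lay below the control level (2.89 in wild type, change -0.16, adjusted p = 0.148). The shared set and the brightest PIP2-1 set both carry the ending x, with which Affymetrix marks sets open to cross-hybridisation. So do the sets of NIP2-2, TIP2-2 and TIP4-2 and the second TIP1-1 set. The sets of TIP3-1, PIP2-2 and TIP2-1 carry the ending s, which marks sets that can match several transcripts. The part of cross-hybridisation in the values of any of these sets was not tested. Of the nearest measured genes, LOC4343123, next after PIP2-1, also fell (log2 change -0.48, SE 0.062, adjusted p = 0.00218). For LOC4343118, before PIP2-4, the change was -0.13 (adjusted p = 0.186). The other 4 neighbours lay between -0.29 and 0.15 and were not called.

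**Figure D3:**
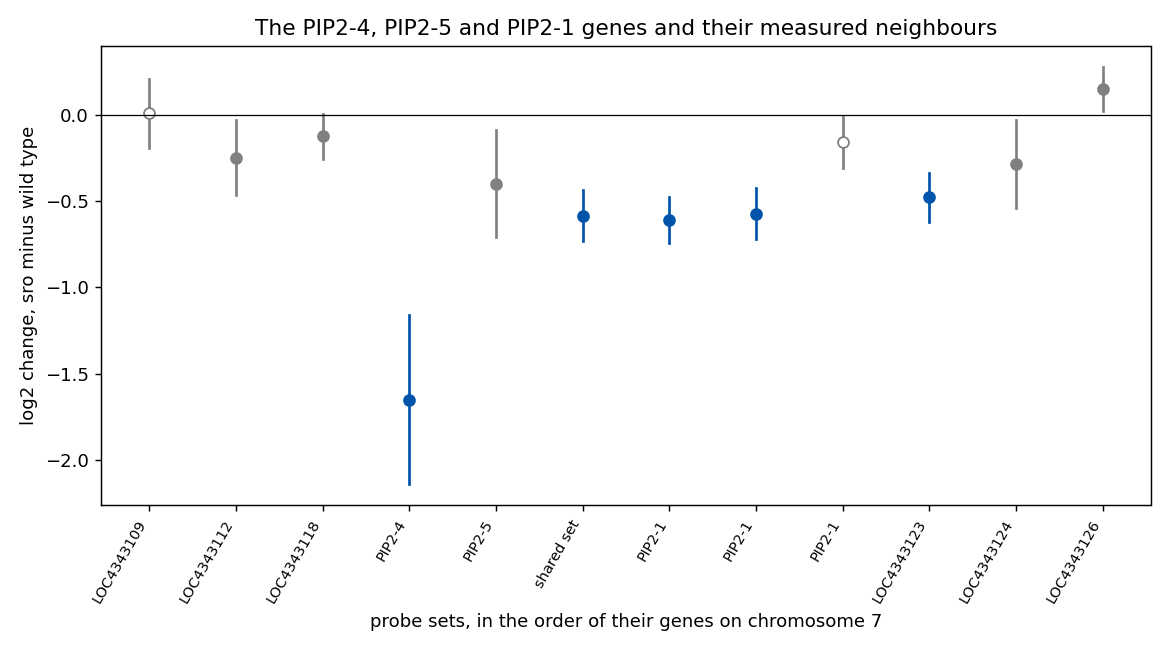
Log2 change with its 95% confidence interval (limma, 3 arrays per genotype) of each probe set of the 3 neighbouring PIP2 genes and of the 3 nearest measured genes on either side, in gene order on chromosome 7. Blue marks called falls, grey sets that were not called and open circles sets below the control level in both genotypes. PIP2-4 (-1.65) lies far below the bright PIP2-1 sets (-0.61 and -0.57), the set shared with PIP2-5 (-0.58) and LOC4343123 (-0.48).

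The remaining PIP2 genes stayed within 0.2 on the log2 scale. PIP2-6 averaged 13.08 (SD 0.067, n = 3) in wild type and 13.13 (SD 0.0043) in sro, a log2 change of 0.044 with a 95% confidence interval of -0.094 to 0.18. PIP2-2 had a log2 difference of 0.17 (adjusted p = 0.207), with sro arrays of 8.32, 8.36 and 8.36 just above wild type arrays of 8.01, 8.29 and 8.22. PIP2-7 averaged close to the control level (4.89 and 4.78), and PIP2-8 was below it on all 6 arrays.

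The PIP1 genes differed least. PIP1-1 (RWC1) averaged 12.21 ± 0.079 in wild type and 12.20 ± 0.12 in sro, a log2 change of -0.0084 (95% confidence interval -0.19 to 0.17). PIP1-2 had a log2 difference of 0.036 (-0.12 to 0.19) at a mean of 12.95 in wild type. These intervals leave out a shift as large as that of PIP2-1. PIP1-3 (RWC3), a gene studied for drought avoidance in rice roots, was below the control level on all 6 arrays.

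None of the 8 measured TIP genes was called. TIP1-1 and TIP2-2, vacuole channels, averaged 13.34 and 13.24 in wild type and had log2 changes of 0.045 (95% confidence interval -0.092 to 0.18) and 0.046 (-0.084 to 0.17). A second TIP1-1 probe set had a log2 difference of 0.068 (adjusted p = 0.601). TIP4-1 (10.54 in wild type) and TIP4-2 (9.98) had log2 differences of 0.14 and -0.11, with adjusted p of 0.29 and 0.541. TIP1-2 had one of -0.13 (adjusted p = 0.332). TIP2-1 lay below the control level on all 6 arrays. The 6 further probe sets of the 25 genes comprise 2 bright ones, those of TIP1-1 and PIP2-1 already given, and 4 that lay below the control level in both genotypes (1 each for PIP2-1, PIP2-2, TIP2-1 and TIP4-1).

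The TIP3 genes, whose group is known from the protein storage vacuoles of seeds, pointed in different directions. TIP3-1 (LOC4348981, chromosome 10) read 9.14, 10.02 and 9.59 in wild type and 9.99, 10.10 and 10.05 in sro. The groups overlapped at wild type replicate 2. Its log2 change of 0.46 (95% confidence interval 0.028 to 0.90, limma adjusted p = 0.15) was the largest among uncalled members, and it was 0.68 (adjusted p = 0.0176) without that array. Without wild type replicate 1 it was 0.24 (adjusted p = 0.266). A probe set that TIP3-1 shares with another gene averaged below the control level in both genotypes (4.40 in wild type and 4.65 in sro). Its log2 change was 0.25 (limma adjusted p = 0.108). TIP3-2 (LOC4336464, chromosome 4) read 5.72, 5.82 and 5.77 in wild type and 5.55, 5.36 and 5.66 in sro, groups that did not overlap (log2 change -0.25, adjusted p = 0.0909). With adjustment over 1 probe set per gene its adjusted p was 0.0533. It passed where limma was refitted on 1 probe set per gene (0.0494), a setting chosen after seeing the data, or on the mean of all probe sets of a gene (0.0497). Of 7 seed storage protein genes 0 were called in limma, and 1 had an unadjusted p under 0.05. Their summed level ran from 8.07 to 8.62 in wild type and from 8.59 to 8.68 in sro, and 4 of them (GLUA-1, LOC4328877, GLUB-4 and GLUA-3) lay at or below the control level in both genotypes.

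Both SIP genes fell by small amounts. SIP2-1 (LOC4332668, chromosome 3) read 5.93, 5.81 and 6.06 in wild type and 5.54, 5.48 and 5.37 in sro, a fall of 0.47 on the log2 scale (SE 0.082, limma adjusted p = 0.00764). In an unmoderated linear model its adjusted p was 0.058. SIP1-1 (LOC4325361, chromosome 1) read 9.85, 9.73 and 9.85 in wild type and 9.52, 9.50 and 9.43 in sro, a fall of 0.32 (SE 0.064, limma adjusted p = 0.0128). In both genes every sro array lay below every wild type array. SIP1-1 missed the threshold without sro replicate 3 (change -0.30, adjusted p = 0.0632).

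Wild type arrays varied more than sro arrays in 20 of the 25 aquaporin genes (80.0%), and in 67.7% of all genes. The wild type range exceeded 0.5 on the log2 scale for 5 members (NIP4-1, PIP2-4, TIP3-1, NIP2-2 and PIP2-5), and the sro range for none. Wild type replicate 2 was the wild type array nearest to the sro mean in 7 of the 8 genes plotted by array, in 17 of the 25 members (68.0%) and in 43.8% of all genes. The 8 plotted genes were picked for a call or a large change in these same arrays. Among all 4768 called genes, wild type replicate 2 was nearest in 53.8%. Without it 8 members were called instead of 5, the additions being PIP2-5, NIP2-2 and TIP3-1. With sro represented by replicate 2 alone, the sro array whose labelling spike was nearest to wild type and a setting chosen after seeing the data, limma called 0 members, and 6 had an unadjusted p under 0.05. The log2 changes of the 5 called genes were then 2.39 for NIP4-1, -1.56 for PIP2-4, -0.62 for PIP2-1, -0.46 for SIP2-1 and -0.31 for SIP1-1. The values of the 2 genotypes did not overlap in 11 of 25 aquaporin genes, 3 higher and 8 lower in sro, where 53.3% of all genes did not overlap, 17.5% higher and 35.8% lower.

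**Figure D4:**
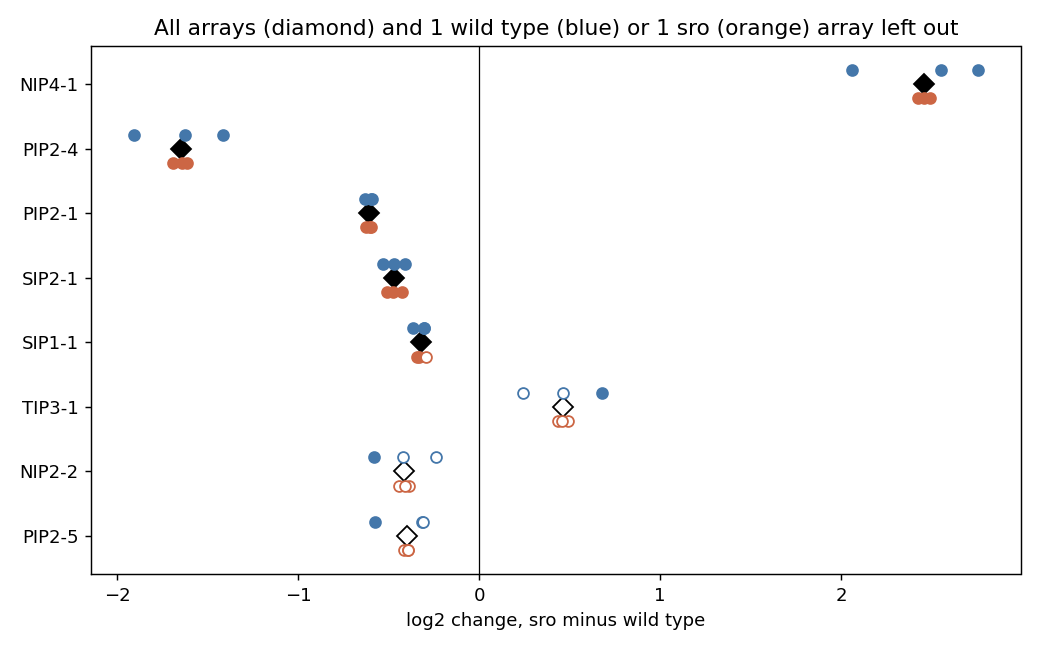
Log2 change, sro minus wild type, of the same 8 genes with all arrays (black diamonds) and with 1 wild type (blue) or 1 sro (orange) array left out. Filled symbols passed the limma threshold and open symbols did not. The 5 called genes kept their direction throughout, only SIP1-1 lost its call, and TIP3-1, NIP2-2 and PIP2-5 gained one without wild type replicate 2.

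Water follows solutes, so potassium channels and transporters, which build up the osmotic gradient, were counted beside the aquaporins. Of 36 named genes 26 were measured. In limma 3 fell, HAK17 (log2 change -0.89, adjusted p = 0.000769), HAK23 (-0.42, adjusted p = 0.00275) and HAK12 (-0.36, adjusted p = 0.00857), 0 rose and 23 were not called, with a median log2 change of -0.0088, where 19.4% of all genes fell and 7.28% rose. An unadjusted p under 0.05 was reached by 2 that were higher in sro and 7 that were lower. Of the 26, 6 lay at or below the control level in both genotypes. HAK13, among the 7 lower, was one of these dim genes (means of 4.37 in wild type and 4.09 in sro). The HAK23 set carries the ending s, and cross-hybridisation in its values was not tested. Proton pump and boron exporter genes were not analysed here.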

How the data were processed

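Total RNA was extracted with Trizol and 500 ng per sample was hybridised as biotinylated cRNA to Affymetrix rice arrays, per the labels' protocols. The deposited values are 1 column of log2 intensities per array. Per the submitters' processing notes, the tools included RMA and Partek, with no version, role or order stated. The log2 scale was inferred from the values. No detection calls were used, and the number of arrays limits precision.

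Of 57381 probe sets, 123 Affymetrix controls (names beginning AFFX) were left out. Probe sets were named through the GEO platform annotation: 22436 had 1 gene, 95 had several and 34727 had none listed. RefSeq names, joined by gene number, are those of the assembly ASM3414082v1, which served for names, chromosomes and gene order only. No sequence is printed.

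The comparison used limma 3.58.1 in R 4.3.3 (lmFit, eBayes without trend, two-sided, no covariates). The code was tested on simulated data. Figures were drawn with matplotlib 3.10.9 in Python 3.11.15. The control level is the mean of 10 Magnaporthe probe sets per array. Where 1 genotype averaged below it, a fold is a lower limit.

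Values in every array are given for called members, NIP4-1 and PIP2-4, and the 3 uncalled members with the largest change. The members and lists were chosen with earlier results of these data known. The proton pump patterns matched OSA15 and OsVP1, which name other genes (photosystem subunit PSAG and a transcription factor), and these were set aside, as were OsMADS18 and a cystatin among the markers. UDT1 and CAB1R, also listed as markers, were not analysed here. The labels do not say that same-numbered replicates share anything, so they were not treated as pairs. They also did not deviate together (correlations of deviations from -0.028 to -0.0037 over all probe sets).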

Additional observations from a re-analysis of the deposited data

How the results depend on the processing

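The 5 called aquaporin genes kept their direction under all 15 other settings listed for this comparison and under a pair of settings chosen after seeing the data, a refit on 1 probe set per gene and sro replicate 2 alone, the latter because replicates 1 and 3 stand apart in the labelling spike. With trended or robust eBayes, the replicate block, the filter on dim probe sets, median centring, quantile normalization and adjustment over 1 probe set per gene the count stayed at 5, the same genes. With the replicate block 6315 probe sets were called, against 8377 without it. Leaving out 1 array gave 4 to 8 called aquaporin genes and 4589 to 7907 called probe sets, with 5253 without wild type replicate 3, 5030 without sro replicate 1 and 4589 without sro replicate 3. In an unmoderated linear model 3 members and 4965 probe sets were called, and PIP2-4 (adjusted p = 0.0521) and SIP2-1 (0.058) missed the threshold. TIP3-2 joined where limma was refitted on 1 probe set per gene (adjusted p = 0.0494) or on the mean of all probe sets of a gene (0.0497), both of which change the moderated variances and the number of tests together, and not with adjustment over 1 probe set per gene alone (0.0533). With sro replicate 2 alone, assumed to vary like the wild type arrays, limma called 0 members (6 at an unadjusted p under 0.05) and 668 probe sets.

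The median log2 change of the family was -0.11 and that of the PIP2 genes -0.25 with the filter on dim probe sets, which leaves 21 and 6 of them. Leaving out 1 array moved the family median between -0.076 and 0.033 and the PIP2 median between -0.24 and -3.5e-05. With sro replicate 2 alone the medians were -0.063 (family), -0.056 (PIP1), -0.26 (PIP2) and -0.018 (TIP).

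No called member reversed. Uncalled members whose change lay near 0 changed sign, and the cause was not tested. Leaving out 1 array gave -0.076 to 0.033 for PIP1-1, -0.034 to 0.21 for PIP1-3, -0.10 to 0.041 for NIP3-1, -0.012 to 0.079 for PIP1-2 and -0.0028 to 0.11 for TIP2-1. With sro replicate 2 alone PIP1-3 was at -0.056, PIP2-8 at -0.042, TIP1-1 at -0.0045 and TIP2-1 at -0.031. PIP1-3, PIP2-8, NIP3-1 and TIP2-1 lay below the control level on all 6 arrays, so no difference could be measured for them.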
